A study of Homo sapiens with 4 samples.

Results

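The response of SW620 cells to SHMT2 knockdown was described from 1 RNA library of SHMT2-knockdown cells and 1 of control cells. Genes were taken as measured when both SW620 libraries held at least 10 counts, which left 12460 of the 26364 rows of the table. SW620 and SW480 are human colorectal cancer cell lines, and the study sequenced a knockdown and a control library of each, 4 libraries in all. The knockdown groups carried an shRNA against SHMT2 whose expression is switched on by doxycycline in a lentiviral vector, and the control groups, which carry the label control, are described in the study as cells with a control shRNA. Which hairpin the sequenced knockdown cells carried, and whether doxycycline was given to control cells, are not given in the sources used here. The same holds for whether the cells of a library were a pool or 1 clone.

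SHMT2 is the mitochondrial serine hydroxymethyltransferase, which converts serine to glycine and passes the released carbon to tetrahydrofolate. That carbon is used for purines, thymidylate, methionine and formylated mitochondrial tRNA, so the enzyme is tied to the growth of dividing cells. When amino acids are short or mitochondria are stressed, cells use the transcription factor ATF4 to raise serine synthesis, amino acid transport and tRNA charging genes.

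The SW620 knockdown library held 13774288 counts and the SW620 control library 5530129, so the knockdown library was 2.49 times as deep. A value of 10 counts was worth 0.742 CPM in the knockdown library and 1.83 CPM in the control library, where CPM is counts per 1000000 of the TMM-scaled library size. There was 1 library per group and therefore no test. Ratios are log2 values of knockdown CPM over control CPM, and their standard errors (SE) and 95% intervals cover counting error only, not the spread between cultures. The SE was 0.645 for a gene with 10 counts in both libraries, and its median over measured genes was 0.125. Of 17 epithelial markers, 13 had at least 10 counts in both SW620 libraries. By the same count, 3 of 11 fibroblast markers, 1 of 15 immune markers and 0 of 10 endothelial markers were measured. The summed levels of the fibroblast list were 32.1 CPM in the knockdown and 29.3 CPM in the control, and those of the immune list were 5.64 and 6.78 CPM. The fibroblast markers FAP, PDGFRA and POSTN had 0 counts in both libraries, while LUM had 313 counts in the knockdown library and 107 in the control and COL1A1 had 86 and 35. In bulk RNA, fewer cells of a kind and less RNA per cell cannot be told apart.

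SHMT2 itself was the gene with the lowest ratio of all those measured in SW620. It had 640 counts in the knockdown library and 3751 in the control, or 47.5 and 687 CPM, a log2 ratio of -3.85 (SE 0.062) that left 6.92% of the control level. In SW480 the values were 205 counts in the knockdown library and 2661 in the control, with a log2 ratio of -3.16 (SE 0.10). SHMT1, the cytosolic enzyme of the same reaction, had 658 counts in the knockdown library and 294 in the control in SW620, a log2 ratio of -0.14 (SE 0.10). SHMT2 lies at chr12:57229327-57234935 on the plus strand of GRCh38 and overlaps exons of NDUFA4L2 on the opposite strand. The use of strand in counting is not given in the sources used here, so reads of this overlap cannot be told apart.

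The hairpin the study prints is aimed at the coding sequence of SHMT2, and the end of this target matches the seed of the hairpin's guide strand, bases 2 to 8 counted from its 5′ end. The 7 letters GGGTTAT, in capitals in the lines that follow, are the complement of that seed. They are shown because 3 of the 15 decreases with intervals farthest from 0, RWDD1, CCND1 and ICK, have the same letters in the longest 3′ UTR that GENCODE 29 gives them. Each line gives 21 bases, 5′ to 3′ on the gene's strand, in GRCh38.
SHMT2, coding sequence, chr12:57231530-57231550, plus strand: acaagtactcggaGGGTTATc
CCND1, 3′ UTR, chr11:69652616-69652636, plus strand: aggtggtttttaaGGGTTATc
ICK, 3′ UTR, chr6:53004710-53004730, minus strand: gctatgtgatagaGGGTTATt
RWDD1, 3′ UTR, chr6:116593148-116593168, plus strand: ggctatgctcagaGGGTTATg
Of 11099 measured genes with a 3′ UTR, 757 (6.82%) held the 7 letters there. The share was 11 of 89 (12.4%) in genes at least 2-fold lower and 8 of 68 (11.8%) in genes at least 2-fold higher. At 1.5-fold it was 40 of 374 (10.7%) in lower genes and 16 of 359 (4.46%) in higher genes. The median 3′ UTR was 1228 bases long in the lower set at 1.5-fold and 1666 bases in the higher set, against 1391 bases over all. The median log2 ratio was -0.012 with the letters and 0.0038 without them. A match of 7 letters is a description of these sequences, and its part in any ratio was not tested.

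Across SW620, 75 genes (0.602% of 12460) were at least 2-fold higher in the knockdown library and 115 (0.923%) were at least 2-fold lower. At 1.5-fold, 399 genes (3.2%) were higher and 492 (3.95%) were lower. The counting interval excluded 0 for 75 of the 75 and 96 of the 115 genes past 2-fold. At 1.5-fold it excluded 0 for 319 of the 399 higher and 315 of the 492 lower genes, so the others lay within counting error of 0. The median log2 ratio over all measured genes was -0.0021, with 49.7% above 0. Most genes past 2-fold were scarce in the shallower control library, with a median of 17.0 control counts in the higher set and 16.0 in the lower set. The counts of lower genes depend on the depth gap: when the same minimum of 1.83 CPM was asked of both libraries, 39 genes instead of 115 were at least 2-fold lower, and 308 instead of 492 at least 1.5-fold lower. With at least 50 counts in both libraries, 10 genes were at least 2-fold higher and 29 were lower. Single genes were therefore ranked by the end of the 95% counting interval nearest 0, not by the ratio alone.

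**Figure D1:**
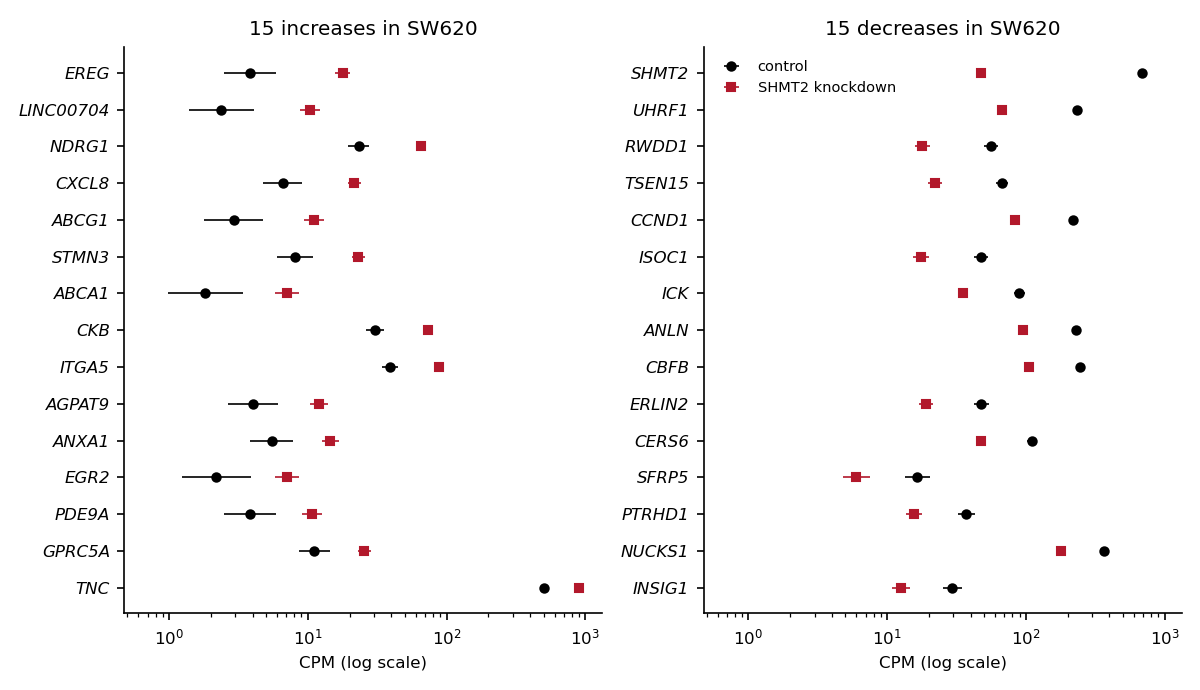
Level in CPM, on a log axis, of the 15 increases and the 15 decreases whose intervals stayed farthest from 0 in SW620, in that order from the top. Black circles are the control library, red squares the SHMT2-knockdown library, and bars are 95% counting intervals; SHMT2 went from 687 to 47.5 CPM and EREG from 3.85 to 17.8 CPM.

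After SHMT2 itself, the decreases with the bounds farthest from 0 in SW620 were UHRF1, RWDD1 and TSEN15, genes of unlike roles. UHRF1, cyclin D1 (CCND1), anillin (ANLN) and CBFB held 4 of the first 9 places in the ranking, with CCND1, ANLN and CBFB left at 38.7%, 41.4% and 42.8% of their control levels and UHRF1 lower still. UHRF1 keeps DNA methylation in place after replication by bringing DNMT1 to newly copied DNA. It had 913 counts in the knockdown library and 1278 in the control, or 67.8 and 234 CPM, and a log2 ratio of -1.79 (SE 0.062), the lowest bound after that of SHMT2 (chr19:4903080-4962154, plus strand). CCND1, the cyclin that works with CDK4 and CDK6 in G1, had 1129 counts in the knockdown library and 1184 in the control, or 83.8 and 217 CPM, and a log2 ratio of -1.37 (SE 0.060) (chr11:69641087-69654474, plus strand). ANLN, an actin-binding protein of the cleavage furrow, had 1283 counts in the knockdown library and 1256 in the control, or 95.2 and 230.0 CPM, a log2 ratio of -1.27 (SE 0.057) (chr7:36389806-36453791, plus strand). The raw counts of CCND1 and ANLN were close to equal in libraries that differ 2.49 times in depth, so the CPM of the knockdown library was the lower one. CBFB, the subunit of core-binding factor that steadies the binding of RUNX proteins to DNA, had 1408 counts in the knockdown library and 1335 in the control, or 104 and 244 CPM, and a log2 ratio of -1.23 (SE 0.055) (chr16:67029116-67101058, plus strand). The study had chosen these 4 genes for measurement from the same libraries, so their direction here is no separate evidence.

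The other 10 decreases were of mixed roles. TSEN15, a subunit of the endonuclease that cuts introns from tRNA, had 297 counts in the knockdown library and 369 in the control and a log2 ratio of -1.62 (SE 0.11). ICK, a kinase of primary cilia, had 474 against 489 counts, knockdown first, and a ratio of -1.35 (SE 0.093). NUCKS1, an abundant chromatin protein, had 2394 against 1995 counts and a ratio of -1.04 (SE 0.044). Among genes of membrane lipids, CERS6, a ceramide synthase, had 643 against 603 counts and a ratio of -1.21 (SE 0.082). ERLIN2, an ER membrane protein that takes part in the breakdown of sterol regulators, had 257 against 261 counts and a ratio of -1.32 (SE 0.13). INSIG1, which holds the sterol sensor SCAP in the ER, had 169 against 161 counts and a ratio of -1.23 (SE 0.16). All of these were chosen by the same ranking, so the likeness of their ratios is no result. SFRP5, a secreted Wnt antagonist, was scarce, with 81 against 90 counts and a ratio of -1.45 (SE 0.22). RWDD1, ISOC1 and PTRHD1 had ratios of -1.65, -1.44 and -1.25. The first decreases outside the 15 were NAA50, ARPIN and SCN3A, with ratios of -1.004, -1.19 and -1.44.

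Replication and mitosis genes were lower as groups, by small amounts. Of 43 measured S phase genes, 40 had ratios below 0, and the median was -0.24 against -0.0021 over all genes. Of 54 G2/M genes, 51 were below 0, with a median of -0.20. At 1.5-fold, 3 S phase genes and 1 G2/M gene were lower and 0 of either list was higher. Over all measured genes 3.95% were lower and 3.2% higher at 1.5-fold, the shares against which the counts of every list here are to be read. UNG, which removes uracil from DNA, had 873 counts in the knockdown library and 590 in the control and a ratio of -0.74 (SE 0.077), and MCM6, a subunit of the replicative helicase, had 2469 against 1368 counts and a ratio of -0.45 (SE 0.049). Among mitotic genes, UBE2C, the ubiquitin-conjugating enzyme of the anaphase-promoting complex, had 1463 against 819 counts and a ratio of -0.47 (SE 0.063). CDCA3 and TUBB4B, a beta-tubulin, had ratios of -0.55 (SE 0.096) and -0.53 (SE 0.024). Most members of both lists thus lay far closer to 0 than UHRF1 and ANLN. WDR76, the other S phase gene past 1.5-fold, had a ratio of -0.65 (SE 0.12).

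The genes that govern entry into S phase were mixed. Of 30 measured G1 control genes, 10 were above 0 and 20 below, with 1 past 1.5-fold higher and 5 lower. CDK2, the kinase of cyclins E and A, had 811 counts in the knockdown library and 508 in the control and a ratio of -0.63 (SE 0.082). CDKN1A, the inhibitor p21, was scarce in SW620 and went the other way, with 85 counts in the knockdown library and 14 in the control and a ratio of 1.30 (SE 0.42). CDKN1B, the inhibitor p27, had 289 against 110 counts and a ratio of 0.091 (SE 0.16), within counting error of 0. The other lower members were CDKN2C and CDKN2D, inhibitors of CDK4 and CDK6, at -0.72 and -0.79, and the transcription factor E2F2 at -0.60. Of 24 p53 target genes, 4 were at least 1.5-fold higher (CDKN1A, GDF15, SESN2 and FAS) and 1, DDB2, was lower, with a median of 0.10; at 50 counts in both libraries the median was -0.032. Replication-dependent histone genes, whose mRNAs lack poly(A) tails, were below 0 in 10 of 12, with a median of -0.25 that was -0.035 at 50 counts. In the list of UHRF1 partners and DNA methylation enzymes, 7 of 16 genes were above 0 and the median was -0.028. DNMT1, the maintenance methyltransferase, had 5260 against 2365 counts and a ratio of -0.15 (SE 0.036), while DNMT3B, which methylates unmarked DNA, had 705 against 188 counts and a ratio of 0.60 (SE 0.12).

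Most genes of the sterol list were lower in SW620, and the transporters that carry cholesterol out of the cell were higher. Of 32 sterol genes, 27 were below 0, with a median of -0.20. At 1.5-fold, 3 were lower (INSIG1, NPC1L1 and IDI1) and 1, MYLIP, was higher. These were not all synthesis enzymes: INSIG1 holds the sterol sensor SCAP in the ER, and MYLIP is also in the LXR list. NPC1L1, unlike INSIG1 and IDI1, was not among the members whose intervals stayed farthest from 0. HMGCS1, which makes HMG-CoA, had 491 counts in the knockdown library and 297 in the control and a ratio of -0.58 (SE 0.11). IDI1, the isomerase of the same pathway, had 367 against 230 counts and a ratio of -0.63 (SE 0.12). ABCA1 and ABCG1, cholesterol efflux transporters induced by the oxysterol receptor LXR, had 96 against 10 counts and 149 against 16 counts, and ratios of 1.961 (SE 0.48) and 1.92 (SE 0.38). MYLIP, an LXR-induced ubiquitin ligase, had a ratio of 0.88 (SE 0.28). Of the 11 measured LXR-regulated genes, 3 were at least 1.5-fold higher and 1 was lower. The one that was lower was APOC1, an apolipoprotein, with 38 against 29 counts and a ratio of -0.91 (SE 0.36).

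Fatty acid genes did not move as a group. Their median was -0.0020, with 13 of 26 above 0. The desaturases were among the lower members: SCD, which makes monounsaturated fatty acids, had 7146 counts in the knockdown library and 5268 in the control and a ratio of -0.86 (SE 0.026). FADS1, the delta-5 desaturase, had 926 against 616 counts and a ratio of -0.71 (SE 0.075). SCD5, a related desaturase, was higher at 172 against 38 counts and a ratio of 0.88 (SE 0.26).

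**Figure D2:**
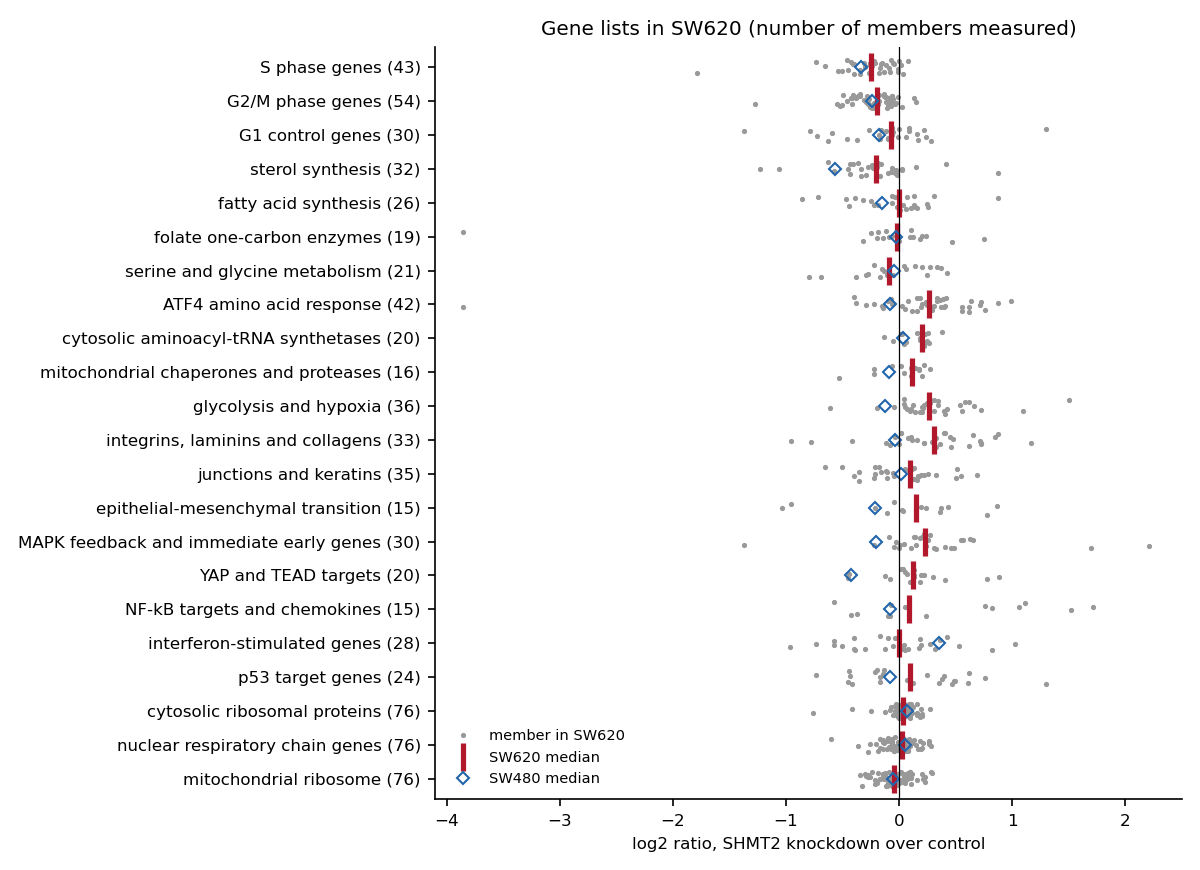
Log2 ratio of knockdown over control for the members of 22 gene lists, with the number measured in SW620 in brackets. Grey points are members in SW620, red bars the SW620 medians, and open blue diamonds the SW480 medians over members measured in all 4 libraries; the SW620 medians ran from -0.24 for S phase genes to 0.30 for integrins, laminins and collagens.

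The increases with the bounds farthest from 0 in SW620 were EREG, LINC00704 and NDRG1, and the 15 were of mixed roles. EREG, which encodes epiregulin, a ligand of the EGF receptor, had 240 counts in the knockdown library and 21 in the control, or 17.8 and 3.85 CPM, a log2 ratio of 2.21 (SE 0.33) and the highest ratio of all measured genes (chr4:74365143-74388751, plus strand). CXCL8, the neutrophil chemokine interleukin-8, had 292 against 36 counts and a ratio of 1.72 (SE 0.26) (chr4:73740506-73743716, plus strand). NDRG1, a gene known for its induction by hypoxia, had 886 counts in the knockdown library and 127 in the control, or 65.8 and 23.2 CPM, which was 2.83 times the control level with a log2 SE of 0.14 (chr8:133237171-133302022, minus strand). All of these were low in the control library, and the counting interval of EREG ran from 1.57 to 2.86. The first increases outside the 15 were CELSR1, LIF and SLC2A3, with ratios of 1.23, 1.254 and 1.10.

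Early targets of growth factor signalling through MAP kinases leaned upwards. In that list 24 of 30 members were above 0, 4 were at least 1.5-fold higher (EREG, EGR2, FOSL1 and DUSP5), and 1, CCND1, was lower, with a median of 0.23. EGR2, an immediate early transcription factor, had 96 counts in the knockdown library and 12 in the control and a ratio of 1.70 (SE 0.44). FOSL1, a component of AP-1, had 1026 counts in the knockdown library and 264 in the control, or 76.2 and 48.3 CPM, and a ratio of 0.66 (SE 0.100). Targets of NF-kB were uneven, with 6 of 15 members at least 1.5-fold higher, 0 lower and a median of 0.083. Those 6 included the chemokine CXCL1 at 92 against 13 counts and a ratio of 1.52 (SE 0.43). TNFAIP3, the NF-kB inhibitor A20, had 211 against 41 counts and a ratio of 1.06 (SE 0.25), and TNFAIP2 had 358 against 67 counts and a ratio of 1.12 (SE 0.19). The list of YAP and TEAD targets also held WWTR1 and TEAD1, which are members of the pathway itself. Of its 20 measured genes, 16 were above 0 and the median was 0.13, and WWTR1 had the highest ratio. AXL, a receptor tyrosine kinase, had 368 against 87 counts and a ratio of 0.78 (SE 0.17), and WWTR1, which encodes the YAP relative TAZ, had 227 against 50 counts and a ratio of 0.88 (SE 0.23).

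Cell adhesion genes had the highest median of the gene lists. Of 33 integrin, laminin, collagen and related genes, 26 were above 0, 8 were at least 1.5-fold higher and 2 lower, with a median of 0.30. ITGA5, the alpha subunit of the fibronectin receptor, had 1187 counts in the knockdown library and 214 in the control, or 88.1 and 39.2 CPM, and a ratio of 1.17 (SE 0.11) (chr12:54395261-54419460, minus strand). TNC, the matrix glycoprotein tenascin-C, had 12213 counts in the knockdown library and 2753 in the control, or 907 and 504 CPM, and a ratio of 0.85 (SE 0.030) (chr9:115019578-115118257, minus strand). The pair of lower members were fibronectin and syndecan-1, so a matrix ligand and its integrin went opposite ways. FN1, fibronectin, had 322 counts in the knockdown library and 254 in the control and a ratio of -0.96 (SE 0.12), and SDC1, the heparan sulfate proteoglycan syndecan-1, had 920 against 639 counts and a ratio of -0.78 (SE 0.074). Genes of junctions and keratins had a median of 0.093, with 1 of 35 at least 1.5-fold higher, KRT80 at 0.69 (SE 0.064), and 1 lower, KRT23 at -0.66 (SE 0.27). CDH1, E-cadherin, had 1956 against 557 counts and a ratio of 0.51 (SE 0.069), and VIM, the mesenchymal filament protein vimentin, had 9734 against 3074 counts and a ratio of 0.36 (SE 0.030). Genes of epithelial-mesenchymal transition were above 0 in 10 of 15, with a median of 0.15. At 1.5-fold, 2 genes were higher, and MMP14 and FN1 were lower. MMP14 had a ratio of -1.04 but, unlike FN1, was not among the 4 members whose intervals stayed farthest from 0.

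Other increases among the 15 were enzymes and signalling proteins. CKB, the brain-type creatine kinase, had 984 counts in the knockdown library and 167 in the control, or 73.0 and 30.6 CPM, and a ratio of 1.26 (SE 0.12). AGPAT9, an acyltransferase of triglyceride synthesis, had 162 against 22 counts and a ratio of 1.58 (SE 0.33), and PDE9A, a cGMP phosphodiesterase, had 144 against 21 counts and a ratio of 1.48 (SE 0.34). ANXA1, the phospholipid-binding protein annexin A1, had 195 against 30 counts and a ratio of 1.40 (SE 0.28). STMN3, a microtubule-binding protein of the stathmin family, had 312 against 44 counts and a ratio of 1.52 (SE 0.23). GPRC5A, a receptor induced by retinoic acid, and the long non-coding RNA LINC00704 were in the same set. Their values were 344 against 61 counts, with a ratio of 1.19 (SE 0.20), and 140 against 13 counts, with a ratio of 2.13 (SE 0.42). HMGA2, a chromatin protein of embryonic tissue, had 900 counts in the knockdown library and 193 in the control and a ratio of 0.92 (SE 0.11).

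Glycolytic and hypoxia-responsive genes were higher nearly as a whole. Of 36 measured members, 33 were above 0, 5 were at least 1.5-fold higher (NDRG1, SLC2A3, BNIP3L, SLC2A1 and PFKP) and 1, TXNIP, was lower, and the median was 0.26. SLC2A1, the glucose transporter GLUT1, had 12519 counts in the knockdown library and 3212 in the control, or 929 and 588 CPM, and a ratio of 0.66 (SE 0.029) with the smallest SE of the 5. PFKP, a phosphofructokinase, had 3412 against 903 counts and a ratio of 0.62 (SE 0.054). SLC2A3, the glucose transporter GLUT3, had 486 against 92 counts and a ratio of 1.10 (SE 0.16). In SW480 the list pointed the other way, with 25 of 34 members below 0 and a median of -0.13. The SW620 ratio was above the SW480 ratio for 31 of these 34 genes.

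**Figure D3:**
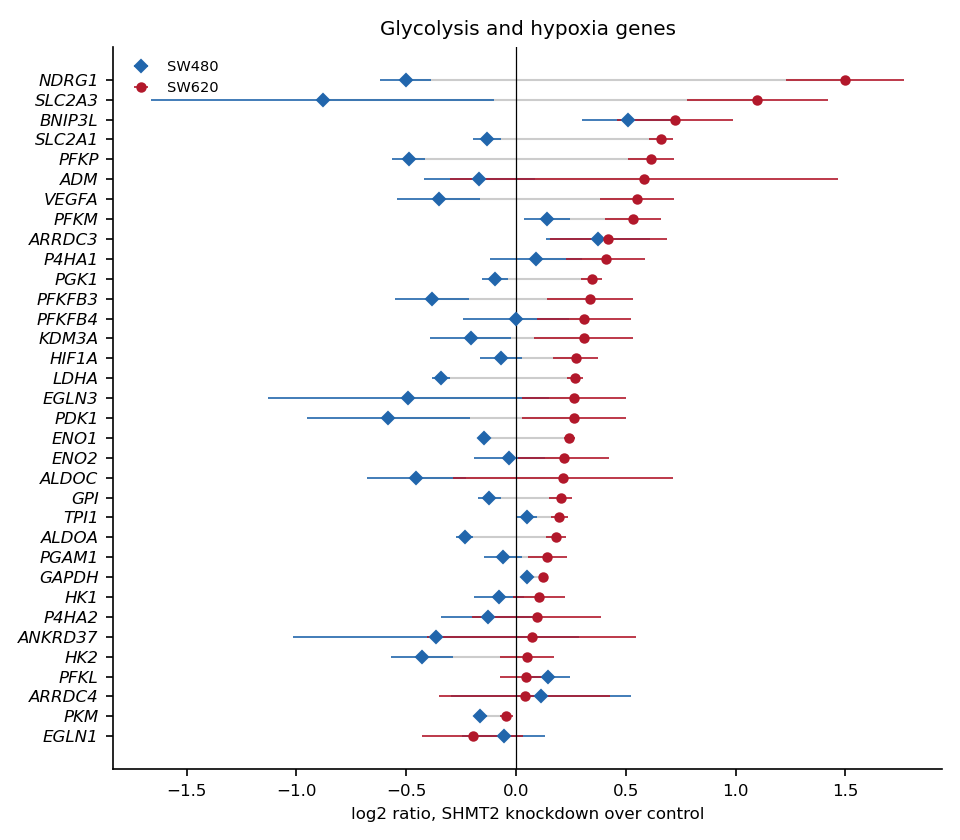
Log2 ratio of knockdown over control for the 34 glycolysis and hypoxia genes measured in all 4 libraries, ordered by the SW620 value. Red circles are SW620, blue diamonds SW480 and bars 95% counting intervals; the SW620 ratio was the higher of the pair for 31 of the 34.

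Genes of the ATF4 amino acid response were higher in SW620, while the folate and serine enzymes around SHMT2 were little changed. Of 42 ATF4-linked genes, 32 were above 0, 8 were at least 1.5-fold higher and 1, SHMT2 itself, was lower, with a median of 0.26. DDIT4, an inhibitor of mTOR complex 1, had 2434 counts in the knockdown library and 538 in the control, or 181 and 98.5 CPM, and a ratio of 0.88 (SE 0.069). SLC7A11, the cystine transporter, had 892 against 221 counts and a ratio of 0.71 (SE 0.11), and VLDLR, the very low density lipoprotein receptor, had 249 against 51 counts and a ratio of 0.99 (SE 0.22). Cytosolic aminoacyl-tRNA synthetases, which charge tRNA with amino acids, were above 0 in 18 of 20, none past 1.5-fold, with a median of 0.20. SARS, the seryl enzyme, had 3793 against 1186 counts and a ratio of 0.37 (SE 0.048). IARS, MARS and HARS, the isoleucyl, methionyl and histidyl enzymes, had ratios of 0.25 (SE 0.033), 0.25 (SE 0.041) and 0.27 (SE 0.061).

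Folate one-carbon enzymes had a median of -0.019 in SW620, with 8 of 19 above 0. MTHFD2, the mitochondrial enzyme that acts next after SHMT2, had 3542 counts in the knockdown library and 1217 in the control and a ratio of 0.24 (SE 0.048). FOLR1, a folate receptor, had 240 against 58 counts and a ratio of 0.75 (SE 0.21). FOLR1 was the 1 member past 1.5-fold on the higher side. In the list of serine and glycine metabolism the median was -0.089, and 2 of 21 genes, CHDH and GCAT, were at least 1.5-fold lower and 0 higher. Over all measured genes the shares were 3.95% lower and 3.2% higher. PSAT1, of serine synthesis, had 4381 against 1372 counts and a ratio of 0.37 (SE 0.045), CBS, of transsulfuration, had 889 against 269 counts and a ratio of 0.42 (SE 0.10), and CHDH, choline dehydrogenase, had 478 against 337 counts and a ratio of -0.80 (SE 0.10). Purine, pyrimidine and dNTP synthesis genes, which draw on one-carbon units, were above 0 in 16 of 34, with a median of -0.0079.

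Promoters of the ATF4-linked genes were searched for TGATGNAA, the composite element that ATF4 and C/EBP proteins bind, on both strands from 250 bases before to 50 bases after the start. RefSeq promoters on GRCh38.p14 were matched for 33 of the 42 genes, and 6 of them (18.2%) held the element, against 3.67% of all 27305 promoters and 1.55% of those of 9328 measured genes. Windows of up to 30 bases are shown for 4 of the 6, those with the highest SW620 ratios, a choice made after the values were seen. The element, or its reverse complement, is in capitals.
CHAC1, chr15:40953251-40953280, plus strand: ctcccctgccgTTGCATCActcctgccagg
ATF3, chr1:212565205-212565234, plus strand: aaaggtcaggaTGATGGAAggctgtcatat
HERPUD1, chr16:56931955-56931984, plus strand: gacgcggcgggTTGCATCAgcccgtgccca
SLC3A2, chr11:62881725-62881748, plus strand: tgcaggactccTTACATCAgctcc
CHAC1, which degrades glutathione, had 390 against 96 counts and a ratio of 0.72 (SE 0.16) in SW620 and of -0.29 (SE 0.18) in SW480. ATF3, a stress-induced transcription factor, had 83 against 22 counts and ratios of 0.61 (SE 0.35) and -0.59 (SE 0.17). HERPUD1, of ER protein degradation, had ratios of 0.36 (SE 0.11) and -0.069 (SE 0.099), and SLC3A2, the heavy chain of amino acid transporters, of 0.29 (SE 0.040) and 0.0013 (SE 0.040). The other members with the element were ASNS and SLC7A1. ASNS had ratios of 0.16 in SW620 and 0.47 in SW480, so it was the higher one in SW480. SLC7A1 was below 0 in both lines, at -0.15 in SW620 and -0.36 in SW480. The CCAAT box, the letters CCAAT on either strand, was in 23 of 32 S phase promoters (71.9%), 30 of 44 G2/M promoters (68.2%) and 18 of 25 sterol promoters (72.0%), against 36.9% over measured genes. It was in 13 of 32 glycolysis and hypoxia promoters (40.6%). The sterol response element TCACNCCAC was in 1 of 25 sterol promoters (4.0%), 2 of 32 glycolysis and hypoxia promoters (6.25%) and 1 of 33 ATF4-linked promoters (3.03%), against 1.14% over measured genes. The E-box CACGTG was in 5 of 32 glycolysis and hypoxia promoters (15.6%), and about as often in sterol (16.0%) and ATF4-linked promoters (15.2%), against 10.3%. A match of letters is a description of the window and not a binding site. The lists were made by known regulator or role and promoter letters do not depend on the libraries, so these shares are no result of the knockdown.

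Most lists of the mitochondrion, the ribosome and protein folding stayed near the centre of all genes, while mitochondrial chaperones and proteases leaned slightly upwards. The mitochondrial ribosome had a median of -0.042 over 76 genes, the nuclear respiratory chain genes 0.021 over 76 and the cytosolic ribosomal proteins 0.036 over 76. None of the mitochondrial ribosome genes and 1 gene in each of the other lists, NDUFC2 and RPL17, passed 1.5-fold on the lower side. NDUFC2 had 109 against 67 counts and a ratio of -0.60 (SE 0.22). RPL17 had a ratio of -0.76, the lowest of its list, but was not among the 4 members whose intervals stayed farthest from 0. Its fall is therefore not read as a change of a ribosomal gene. Mitochondrial chaperones and proteases were above 0 in 12 of 16, with a median of 0.11. HSPD1, the chaperonin of the mitochondrial matrix, had 19151 counts in the knockdown library and 6731 in the control and a ratio of 0.21 (SE 0.020). HSPA9, the matrix HSP70, had 8584 against 2995 counts and a ratio of 0.22 (SE 0.031), and HTRA2, a protease of the intermembrane space, went the other way at -0.53 (SE 0.091). The ER chaperone and heat shock lists had medians of 0.029 and -0.025, and the list of NRF2 targets and glutathione 0.065. Metallothioneins had 5 of 9 members measured, with a median of -0.015.

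Lists of tissue identity were mixed, and their few members past 1.5-fold are to be read beside 3.2% higher and 3.95% lower over all measured genes. Wnt targets and stem cell genes had a median of -0.092, with 3 of 27 at least 1.5-fold higher (CD44, APCDD1 and DKK1) and 2 lower (APC and EPHB3). APCDD1, a Wnt inhibitor, had 591 against 132 counts and a ratio of 0.86 (SE 0.14), while APC had 567 against 358 counts and a ratio of -0.64 (SE 0.097). DKK1, a secreted Wnt antagonist, had 79 against 16 counts and a ratio of 1.00 (SE 0.40). Intestinal differentiation genes had a median of 0.13, with HES1, a Notch target, at 0.71 (SE 0.21) and TFF3, a goblet cell peptide, at 0.38 (SE 0.14). BMP and TGF-beta targets had a median of 0.22 and 2 of 11 at least 1.5-fold higher, among them PMEPA1 at 0.73 (SE 0.14). Of 8 measured let-7 and oncofetal genes, 7 were above 0; DICER1, which cuts miRNA precursors, had 2142 against 553 counts and a ratio of 0.65 (SE 0.069). The 4 measured members of the RUNX and CBFB list had a median of -0.18, with RUNX1 at -0.25 (SE 0.052) and RUNX3 at 0.29 (SE 0.084). Cancer-testis genes had 2 of 31 members measured, and epithelial markers a median of -0.043 over 13.

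The leading decreases of SW620 were also lower in SW480, while its leading increases went both ways there. Of the 15 decreases, 14 were measured in all 4 libraries, and 14 of 14 had SW480 ratios below 0, from -0.46 to -3.16. The median SW480 ratio over all 11576 genes was 0.006. The value of -3.16 is that of SHMT2, the gene knocked down in both lines, and UHRF1 was the lowest of the others. UHRF1 had 460 counts in the knockdown library and 2207 in the control in SW480, a ratio of -1.73 (SE 0.074), and CCND1 had 2314 against 9102 counts and a ratio of -1.44 (SE 0.034). Of the 15 increases, 10 could be compared, and 4 were above 0 and 6 below in SW480. ABCA1 was the one with a SW480 ratio past 1.5-fold on the higher side, at 1.51 (SE 0.34). TNC, CXCL8, ABCG1, EGR2 and LINC00704 held under 10 counts in at least 1 SW480 library, TNC with 2 against 3 counts there. Those genes have no measured SW480 response. Over the whole set, 59 of the 75 genes at least 2-fold higher in SW620 were measured in both lines, and 4 of them were at least 1.5-fold higher in SW480, 6 at least 1.5-fold lower and 49 in between. Of all 11576 genes measured in both lines, 3.59% were at least 1.5-fold higher and 2.49% at least 1.5-fold lower in SW480. Of the 66 lower genes measured in both, 22 were at least 1.5-fold lower in SW480, 8 higher and 36 in between. These shares were not tested. Across the 11576 genes measured in all 4 libraries the log2 ratios of the lines had a Pearson correlation of 0.102 and a Spearman correlation of 0.0961. In the 5328 genes with at least 200 counts in every library Pearson's r was 0.315. Genes are not independent replicates, and the shared totals of each library enter every gene.

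**Figure D4:**
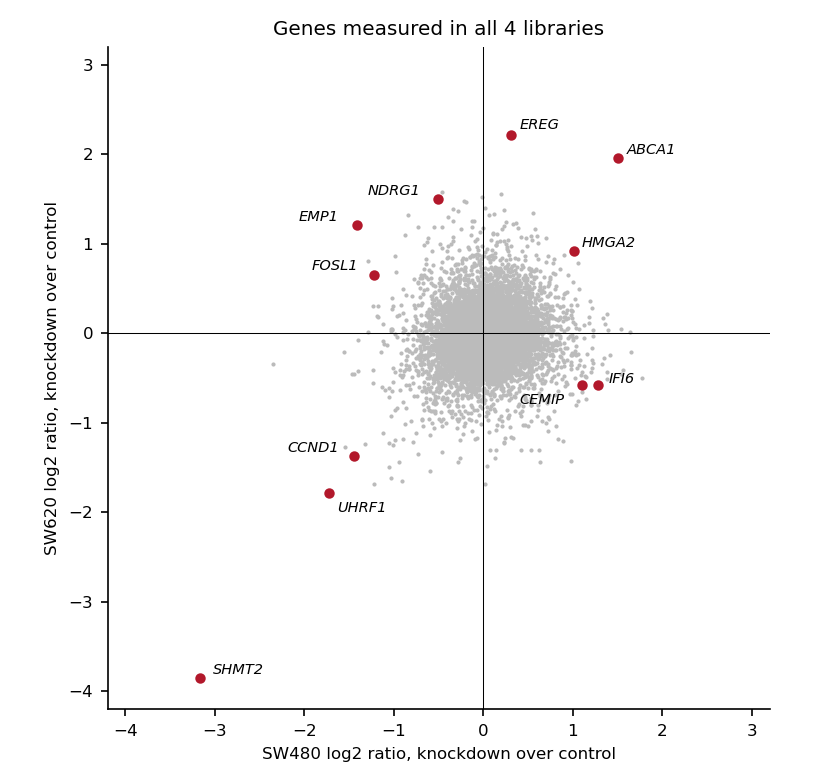
Log2 ratio of knockdown over control in SW620 (vertical) against SW480 (horizontal) for 11576 genes measured in all 4 libraries, 1 grey point a gene. Named genes are red; SHMT2, UHRF1 and CCND1 lie low in both lines, ABCA1 and HMGA2 high in both, and NDRG1, EMP1 and FOSL1 high in SW620 and low in SW480.

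Genes whose ratio was higher in SW620 than in SW480 included membrane, growth signal and hypoxia genes. The SW620 ratio was at least 1 above the SW480 ratio for 137 genes (1.18% of 11576) and at least 1 below it for 212 (1.83%). When 1.83 CPM was asked of all libraries the second count was 121. Of the 12 genes with the difference farthest above 0, 12 were above 0 in SW620 and 11 below 0 in SW480, EREG being the exception. They were chosen by that difference, which favours opposite signs, so this tally is no separate result. EMP1, a four-span membrane protein of epithelia, had 217 counts in the knockdown library and 38 in the control in SW620 and 175 against 673 in SW480. Its ratios were 1.21 and -1.41, a difference of 2.62 (SE 0.28). NDRG1 differed by 2.003 (SE 0.15), SLC2A3 by 1.98 (SE 0.43) and AGPAT9 by 2.04 (SE 0.35). The SW480 knockdown library was 0.671 times as deep as its control, and the ratios take the depth of each pair into account. FOSL1 had 724 against 2454 counts in SW480 and a difference of 1.88 (SE 0.12). NRP2, a co-receptor of semaphorins and VEGF-C, differed by 2.10 (SE 0.45). GPRC5A, EREG, CKB and BCAR3, an adaptor of p130Cas, differed by 1.92, 1.90, 1.59 and 1.54.

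Genes whose ratio was lower in SW620 than in SW480 included interferon-stimulated genes. Of the 12 with the difference farthest below 0, 12 were below 0 in SW620 and 12 above 0 in SW480, and in 8 both counting intervals excluded 0. These 12 too were chosen by the difference, which favours opposite signs, so the tally is no separate result. IFI6, an interferon-induced mitochondrial protein, had 86 counts in the knockdown library and 52 in the control in SW620 and 235 against 140 in SW480. Its difference was -1.86 (SE 0.30). IFIT1, which binds foreign RNA, differed by -1.88 (SE 0.44), and IRF9, the DNA-binding subunit of the interferon-activated factor ISGF3, by -1.67 (SE 0.35). The interferon-stimulated list had a median of -0.0012 over 28 genes in SW620 and of 0.36 over 25 genes in SW480, where 24 were above 0. The SW620 ratio was the higher one for 5 of the 25. Within SW620, MX2, IFIT1, OAS2 and IFITM3 were the members past 1.5-fold, at -0.97, -0.74, 1.02 and 0.82, so the list had no common direction there. CEMIP, which breaks down hyaluronan, had 3013 counts in the knockdown library and 1825 in the control in SW620 and 269 against 182 in SW480, a difference of -1.68 (SE 0.14). SAT1, the spermidine and spermine acetyltransferase, had 3155 against 1654 counts in SW620 and 2315 against 1890 in SW480, a difference of -1.20 (SE 0.063). MAN1A1, a mannosidase of the Golgi, differed by -1.26 (SE 0.13), KRT23, a keratin, by -1.76 (SE 0.29), and MR1, an antigen-presenting molecule, by -1.68 (SE 0.34). BTN3A3 and TBX19 differed by -1.67 and -2.41. CCDC152 and SEPP1, which overlap on opposite strands, differed by -2.27 and -1.97, and their reads cannot be told apart.

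**Figure D5:**
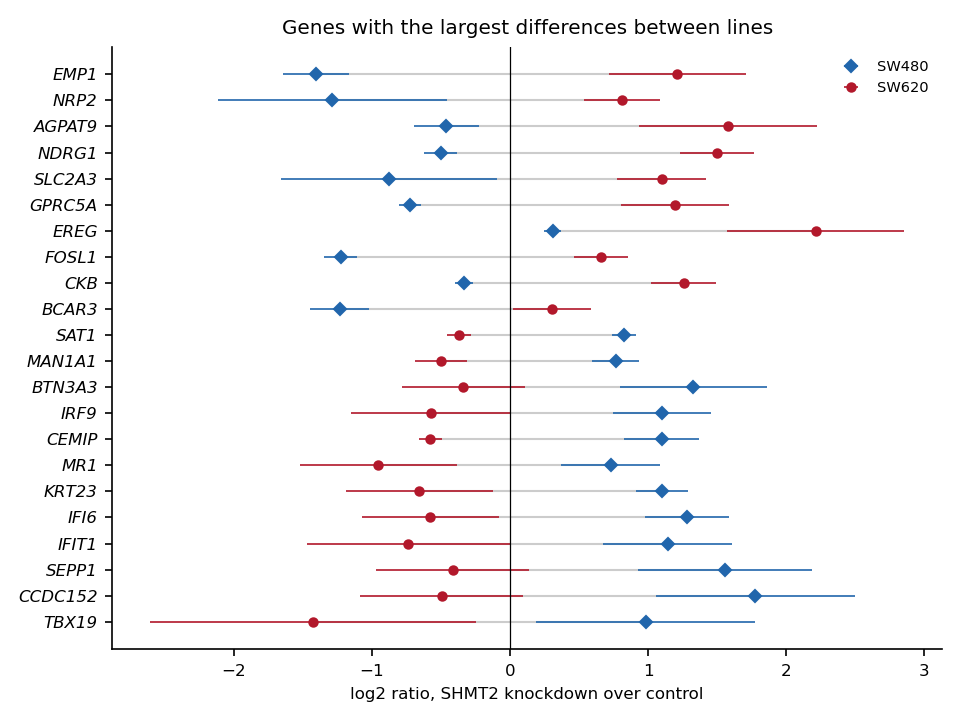
Log2 ratio of knockdown over control in SW620 (red circles) and SW480 (blue diamonds) for 10 of the 12 genes with the difference between lines farthest above 0 and the 12 farthest below 0, with 95% counting intervals, ordered by the difference. EMP1 is at the top with a difference of 2.62 and TBX19 at the bottom with -2.41.

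Some lists differed between the lines in 1 direction, some in the other and some hardly at all. The median difference, SW620 minus SW480, was 0.56 for the list of YAP and TEAD pathway genes and targets. In that list 17 of 18 genes were higher in SW620, against a median difference of 0.0001 over all 11576 genes. It was 0.39 for glycolysis and hypoxia genes, 0.33 for sterol genes, 0.33 for adhesion genes, 0.27 for ATF4-linked genes and 0.27 for MAP kinase targets. It was below 0 for interferon-stimulated genes, at -0.54, and for the 6 histone genes measured in both lines, at -0.42. It was near 0 for respiratory chain genes, at -0.0017, and p53 targets, at 0.0024. Sterol genes were lower in both lines, with medians of -0.20 in SW620 and -0.57 in SW480 over the same 31 genes. S phase genes had medians of -0.24 and -0.34, and G2/M genes of -0.20 and -0.24, so the cell cycle lists were lower in both. Under scaling by total counts the median difference of the S phase genes was 0.038 and that of the G2/M genes -0.011, so no order of the lines is given for them. None of these differences was tested.

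A further 1199 genes held at least 10 counts in only 1 SW620 library, 1188 of them in the deeper knockdown library and 11 in the control. PTHLH, which encodes the parathyroid hormone-related protein, had 105 counts (95% exact Poisson interval 85.9 to 127) in the knockdown and 6 (2.20 to 13.1) in the control, a log2 ratio of 2.83 (SE 0.61). TMEM63C had 99 and 8 counts, SLC29A4, a monoamine transporter, 82 and 9, and EFNA3, an ephrin ligand, 74 and 8. Their log2 ratios were 2.33, 1.89 and 1.91. PTGS1, cyclooxygenase-1, had 64 and 7 counts, ARC, an immediate early gene, 61 and 7, EPHA4, an ephrin receptor, 65 and 9, and RAET1L, a ligand of NKG2D, 66 and 9. Among the 11, the highest count in the control was 14, for DOCK9-AS2, with 7 in the knockdown library. The others among the 8 with the most control counts, CCDC7, LOC100131347, DLG2, LOC101928673, LOC101930071, PHACTR1 and HIST1H2AK, had 10 to 12 counts in the control and 6 to 9 in the knockdown. The imbalance of 1188 to 11 moves with the depth gap of 2.49 times and says nothing about direction. The genes named here were picked for the most counts in 1 library with under 10 in the other. That choice favours large ratios, so their size is no separate result.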

How the data were processed

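RNA of SW620 and SW480 cells with SHMT2 knockdown or as control was sequenced as 1 library per group, from Illumina TruSeq RNA libraries per the labels. The deposited table gives raw counts by gene symbol in 26364 rows, without normalization. The submitters' processing notes name Bowtie 0.12.2 and hg18 without a role; the counting program, annotation and use of strand are not given in the sources used here. The study's methods describe an Agilent microarray, while the table holds whole numbers whose totals differ between libraries. In 28 rows, with 0.217% of the counts, the symbol had become a date, and these rows are not named.

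Libraries were scaled by TMM (edgeR 4.0.16, R 4.3.3) over all 4. Log2 ratios of CPM used no prior count, for genes with at least 10 counts in both libraries of a line. The SE is the root of the summed inverse counts, on the log2 scale, and 95% intervals cover counting error only. The computation of ratios and intervals was checked on simulated counts that held counting error only. That check cannot speak to the spread between cultures. With 1 library per group no test was run and no sample was left out.

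The genes named are SHMT2, SHMT1, the genes the study measured by qPCR or western blot, the 15 increases and 15 decreases in SW620 and the 12 differences on each side between lines whose intervals stay farthest from 0, 8 genes on each side with the most counts among those measured in 1 SW620 library, and up to 4 members of each list. Other list members past 1.5-fold were named after their values were seen, and a few genes the rule names are not reported here. All members and lists were chosen with earlier results of these data known, and lists share some genes. Positions and 3′ UTRs were read from GENCODE 29 (GRCh38), not the build in the processing notes; 51 of the 54 leading genes had a position, and 17 overlap a gene on the opposite strand. Across 11117 genes with a transcript length, the SW620 ratio had a Spearman correlation of 0.0955 with length and -0.0379 with GC content. Alternatives were scaling by total counts, DESeq2 1.42.0 size factors or TMM within each line, minimums of 50 counts, 1 count or 1.83 CPM, and a prior count of 2.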

Additional observations from a re-analysis of the deposited data

Results flagged for a closer look

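Genes whose log2 ratios, with their counting intervals, had opposite signs in SW620 and SW480 are given here as SW620 minus SW480. Lists are given by the difference of their medians, where the medians had opposite signs and each lay beyond its counting half-width. That half-width covers counting error only, not the spread between members. Members did not all follow the medians. The SW620 ratio was the higher one for 23 of 28 MAP kinase, 31 of 34 glycolysis and hypoxia and 28 of 39 ATF4-linked genes. The same held for 8 of 13 epithelial-mesenchymal transition genes and 14 of 16 mitochondrial chaperones and proteases. With 1 library per group, none of these differences was tested.

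Among genes higher in SW620, EMP1 differed by 2.62, NRP2 by 2.10, AGPAT9 by 2.04, NDRG1 by 2.003 and SLC2A3 by 1.98. GPRC5A differed by 1.92, FOSL1 by 1.88, CKB by 1.59 and BCAR3 by 1.54.

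Among genes lower in SW620, TBX19 differed by -2.41, IFIT1 by -1.88, IFI6 by -1.86, KRT23 by -1.76 and MR1 by -1.68. CEMIP differed by -1.68, MAN1A1 by -1.26 and SAT1 by -1.20.

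Among lists, the difference of the medians in the lines was 0.41 for MAP kinase feedback and immediate early genes, 0.39 for glycolysis and hypoxia genes, 0.36 for epithelial-mesenchymal transition genes, 0.33 for ATF4-linked genes and 0.20 for mitochondrial chaperones and proteases. A further 8 lists had medians of opposite sign with at least 1 of the pair within its counting interval of 0. The list of YAP and TEAD pathway genes and targets, with 0.13 in SW620 and -0.42 in SW480, stood farthest apart of these. Its SW620 median was within its counting half-width of 0.151. Histone genes had -0.12 and 0.31, and integrin, laminin and collagen genes had 0.31 and -0.041.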

How the results depend on the processing

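With 1 library per group, all values lack a replicate check, and a minimum of 10 counts admits genes that are scarcer in the deeper knockdown library than in the control. Of 539 values that answer a comparison under the alternatives, 516 moved by no more than the counting error of the value, or by no more than 1.5 times for counts of genes, and so did 2064 of 2067 values of single genes. Of these, 13 and 11 nevertheless changed sign, all from values that lay within their counting error of 0. The cause of the changes in scaling was not tested; the changes in counts come from fewer or more genes entering.

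With at least 50 counts, genes at least 2-fold higher numbered 10 and lower 29, at 1.5-fold 138 and 169, and genes with SW620 at least 1 above or below SW480 numbered 41 and 30. With at least 1 count the same numbers were 583 and 994, 1261 and 1676, and 675 and 1009. With the same minimum of 1.83 CPM in all libraries, 39 genes were at least 2-fold lower, 308 at least 1.5-fold lower and 121 at least 1 below SW480. Under scaling by total counts the median difference, SW620 minus SW480, reversed to -0.011 for G2/M genes and -0.0027 for the mitochondrial ribosome, and, within counting error, it also changed sign to -0.0090 for G1 control genes, -0.0122 for ER chaperones, -0.0532 for p53 targets and -0.027 for metallothioneins. It moved to 0.066 for aminoacyl-tRNA synthetases, 0.038 for S phase genes, -0.0574 for respiratory chain genes and -0.078 for cytosolic ribosomal proteins. With at least 50 counts the median difference was -0.0057 for LXR-regulated genes, 0.0033 for BMP and TGF-beta targets and 0.17 for NF-kB targets, and the histone median -0.035. The p53 target median was -0.032 with at least 50 counts, and the median difference of MAP kinase targets was 0.56 with at least 1 count. No paired analysis was possible because each group within SW620 had 1 library and the labels hold no replicate numbers; a model of knockdown and line over the 4 libraries, which has 1 residual degree of freedom and gives no response of SW620 alone, was not run.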
